A study of Homo sapiens with 4 samples.

Results

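This report follows the interferon-stimulated genes and the interferon-inducible chemokine genes in the human gastric cancer cell line AGS after exposure to LPS (lipopolysaccharide, a component of the bacterial outer membrane) of Helicobacter pylori. The 32 genes were listed by name as members of the interferon response, by a rule that uses no measured value, though with earlier results of these data known. Of these 32 genes, 31 had a probe set that the platform annotation assigns to them alone, out of 19775 genes with such a probe set, and STAT2 was not analysed here. The 31 genes were read by 54 probe sets, and the brightest of a gene stood for it. LPS cells had their medium replaced by medium with 10 µg/ml H. pylori LPS and were harvested 8 h later, on 2 arrays. Untreated cells received fresh medium for the same 8 h, also on 2 arrays. Both groups were grown in the same medium with serum, penicillin and streptomycin. The design text gives 2 independent experiments. Nothing in the labels says which arrays belong to which experiment, so p-values measure the spread between these arrays.

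Interferons are secreted proteins that warn neighbouring cells of infection. Type I and type III interferons bind receptors coupled to the kinases JAK1 and TYK2, which activate transcription factors such as STAT2. STAT2 works in a complex with IRF9 that binds the interferon-stimulated response element (ISRE) before target genes. The targets include RNA sensors, enzymes and binding proteins that block virus replication, and feedback proteins that end the signal. Bacterial LPS can reach the same genes through the adaptor TICAM1 (TRIF) and IRF3, which drive interferon beta. CXCL9, CXCL10 and CXCL11 are chemokines that attract T cells carrying the receptor CXCR3, and interferon gamma and NF-kB both act on their promoters.

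RefSeq windows (GRCh38.p14) were held for 25 of the 32 genes, all but GBP2, IFIT2, IRF7, MX2, OAS2, OASL and USP18. The 250 bases before each annotated start were searched on both strands. The ISRE core was taken as GAAA, any 2 bases and GAAA again. The NF-kB site was GGGA, any 2 bases, T, any base and CC, and the STAT site known as GAS was TTC, any 3 bases and GAA. Matches of the same or of different motifs may overlap. The windows below belong to ISG15, whose probe set was bright, to a pair of IFIT genes of which IFIT3 had the widest difference with LPS, and to the chemokine cluster. Capitals mark matches of the ISRE core or the NF-kB site, and each sequence runs 5′ to 3′ on the gene's own strand. They stand in the order ISG15 (chr1:1013247-1013496, plus strand), IFIT1 (chr10:89392373-89392622, plus), the first and second annotated start of IFIT3 (chr10:89327747-89327996 and chr10:89332279-89332528, plus), CXCL9 (chr4:76007510-76007759, minus), CXCL10 (chr4:76023498-76023747, minus) and CXCL11 (chr4:76036071-76036320, minus).
ISG15: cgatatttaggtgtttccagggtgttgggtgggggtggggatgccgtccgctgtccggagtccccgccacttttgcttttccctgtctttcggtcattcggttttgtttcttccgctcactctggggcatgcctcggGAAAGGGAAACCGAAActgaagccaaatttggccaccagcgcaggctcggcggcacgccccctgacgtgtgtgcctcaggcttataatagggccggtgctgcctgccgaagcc
IFIT1: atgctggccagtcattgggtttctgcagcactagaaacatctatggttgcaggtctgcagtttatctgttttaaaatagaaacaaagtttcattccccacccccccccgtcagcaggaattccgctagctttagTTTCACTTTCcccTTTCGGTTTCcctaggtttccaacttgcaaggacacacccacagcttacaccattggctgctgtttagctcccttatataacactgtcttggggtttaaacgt
IFIT3 first start: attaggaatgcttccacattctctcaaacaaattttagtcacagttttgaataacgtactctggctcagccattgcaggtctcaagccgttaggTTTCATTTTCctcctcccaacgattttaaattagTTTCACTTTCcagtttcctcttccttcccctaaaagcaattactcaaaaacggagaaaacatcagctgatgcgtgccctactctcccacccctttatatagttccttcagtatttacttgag
IFIT3 second start: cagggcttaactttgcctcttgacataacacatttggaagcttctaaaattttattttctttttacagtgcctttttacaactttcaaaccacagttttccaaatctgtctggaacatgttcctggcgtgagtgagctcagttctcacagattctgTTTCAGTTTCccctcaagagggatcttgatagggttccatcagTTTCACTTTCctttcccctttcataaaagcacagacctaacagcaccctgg
CXCL9: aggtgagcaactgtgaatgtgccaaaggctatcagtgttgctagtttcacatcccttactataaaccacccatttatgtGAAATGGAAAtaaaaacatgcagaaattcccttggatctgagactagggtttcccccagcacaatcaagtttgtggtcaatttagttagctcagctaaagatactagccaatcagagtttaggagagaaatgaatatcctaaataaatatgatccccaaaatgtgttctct
CXCL10: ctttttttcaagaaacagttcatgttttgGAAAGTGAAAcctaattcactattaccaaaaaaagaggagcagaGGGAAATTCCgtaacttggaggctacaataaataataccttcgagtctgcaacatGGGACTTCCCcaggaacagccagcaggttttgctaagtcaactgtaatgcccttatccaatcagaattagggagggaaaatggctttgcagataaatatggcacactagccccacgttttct
CXCL11: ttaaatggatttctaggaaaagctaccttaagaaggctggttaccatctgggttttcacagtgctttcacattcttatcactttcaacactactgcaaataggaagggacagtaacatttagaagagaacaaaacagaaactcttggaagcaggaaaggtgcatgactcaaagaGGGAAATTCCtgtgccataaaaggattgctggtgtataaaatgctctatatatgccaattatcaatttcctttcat

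The ISRE core lay before 17 of the 25 genes (68.0%), against 3.39% of the 15384 tested genes with a window. The NF-kB letters were matched for 5 of 25 genes (20%, against 5.95%) and the GAS letters for 9 of 25 (36.0%, against 7.82%). In ISG15 a pair of overlapping ISRE cores lay 113 to 98 bases before the start. IFIT1 held its cores at 116 to 107 and 103 to 94 bases, and each start of IFIT3 had a pair as well. CXCL10 had an ISRE core at 221 to 212 bases and NF-kB matches at 177 to 168 and 122 to 113 bases. CXCL11 had no ISRE core in this window and an NF-kB match at 76 to 67 bases. A match describes letters in a sequence and was not tested as a binding site. The letters GAAACGAAA, with fewer bases between the GAAA blocks, were not counted as an ISRE core. On either strand they lie before OAS1, RIGI, the first start of RSAD2 and the second start of MX1. A window without a match may thus still hold a related site.

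**Figure D1:**
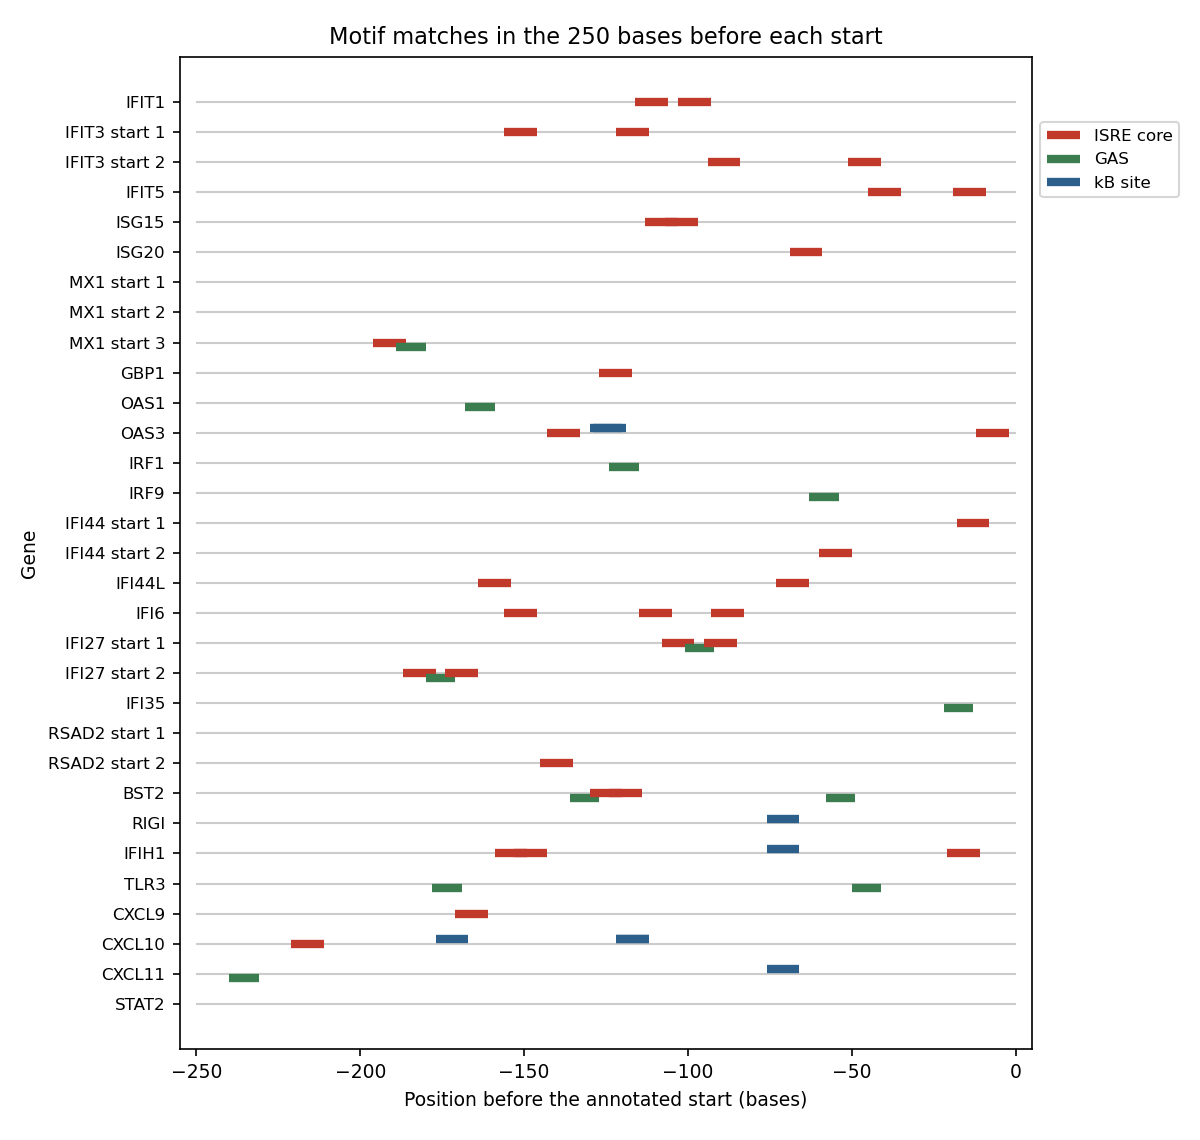
Matches of the ISRE core (red), the NF-kB letters (kB site, blue) and the GAS letters (green) in the 250 bases before each annotated start of the 25 genes with a window (x axis, bases before the start; 1 line per start). The ISRE core lies before 17 of the 25 genes, and 4 starts (MX1 start 1 and 2, RSAD2 start 1 and STAT2) have no match of any motif. Spacings other than 2 bases between the GAAA blocks were not counted as an ISRE core.

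In untreated cells the module was divided between bright and dim genes. The brightness of a probe set depends on its probes as well as on the transcript, so the level of a gene was not ranked against that of another. As a yardstick for dim signal, 82 olfactory receptor genes, known mainly for smell, were used: their untreated means had a median of 5.65 and a 95th percentile of 6.76 (log2). Of these, 2 lay above the median over all genes, and whether single ones are expressed in these cells was not tested. Above that percentile lay 19 of the 31 genes (61.3%), against 57% of all genes tested. The share is near that of all genes. The closest genes above it were MX2 (6.79) and RSAD2 (6.84), and the closest below it were IFI35 (6.59) and CXCL10 (6.56).

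Besides MX2 and RSAD2, the genes above the percentile were all 4 IFIT genes, ISG15 and its protease USP18, OAS1, OAS3 and OASL, the factors IRF1, IRF7 and IRF9, the cytosolic RNA sensors RIGI and IFIH1, ISG20, IFI6 and IFI27. The 12 genes below it were MX1, both GBP genes, OAS2, IFI44, IFI44L, IFI35, BST2, TLR3 and all 3 chemokine genes. Of the 17 measured genes with an ISRE core, 10 lay above the olfactory percentile, and of the 7 with a window and no core as defined here, 4 did. OAS1 and RIGI were counted without a core, though their windows hold GAAACGAAA, so this split rests on the spacing chosen. For the dim genes a transcript level cannot be told apart from background on these arrays. Detection calls were not used here.

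**Figure D2:**
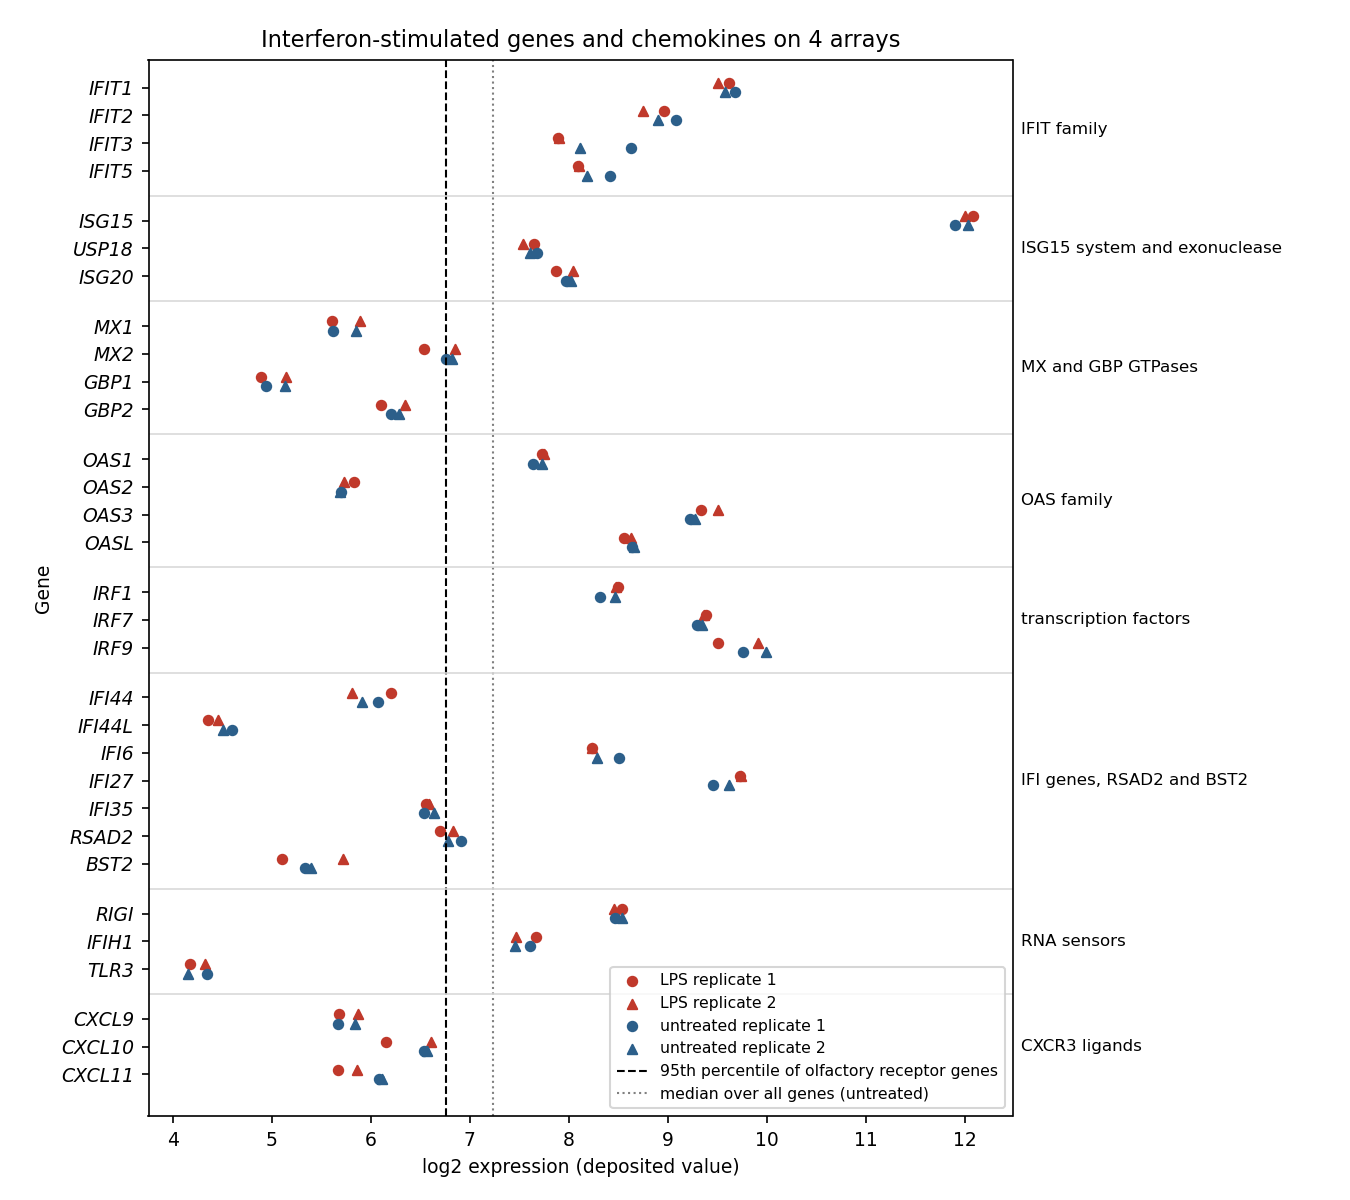
Deposited log2 expression (x axis) of the 31 genes (y axis, grouped by role) on each of 4 arrays, LPS in red above untreated in blue; circles are replicate 1 and triangles replicate 2. The dashed line marks the 95th percentile of olfactory receptor genes (6.76) and the dotted line the median over all genes (7.24), both in untreated cells; the colours lie close together for each gene, and all 3 CXCR3 ligands sit left of the dashed line.

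After LPS, none of the 31 genes passed the test in either direction. The comparison was fitted with limma over all 19775 genes with Benjamini-Hochberg adjustment, and every one of the 31 genes had an adjusted p of 1. Over all genes 0% were called higher and 0% lower at the adjusted threshold of 0.05 (limma, smallest adjusted p = 0.299). At an unadjusted p under 0.05, 0 of the 31 genes were higher (1.26% of all genes) and 2 were lower, CXCL11 and IFIT3 (1.57% of all genes; 2.83% in either direction). For a single gene the smallest p of an exact two-sided permutation test in this design is 0.33. The median difference was -0.019 on the log2 scale over the 31 genes, beside 0.017 over all genes, and 18 of the 31 genes (58.1%) lay below 0, beside 43.5% of all genes.

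The intervals limit, for each gene taken singly, how large a rise at 8 h could have gone unseen. Other times were not measured. For all 31 genes the upper end of the 95% interval of the LPS to untreated ratio lay below 1.5-fold, as it did for 98.0% of all genes, and the highest was 1.40 for BST2. These bounds hold for the probe set signal. For the 12 dim genes, whose signal may be mostly background, they do not bound a change in transcript. The difference with LPS was smaller than the larger of the gaps between same-group arrays for 26 of the 31 genes (83.9%), beside 81.1% of all genes.

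**Figure D3:**
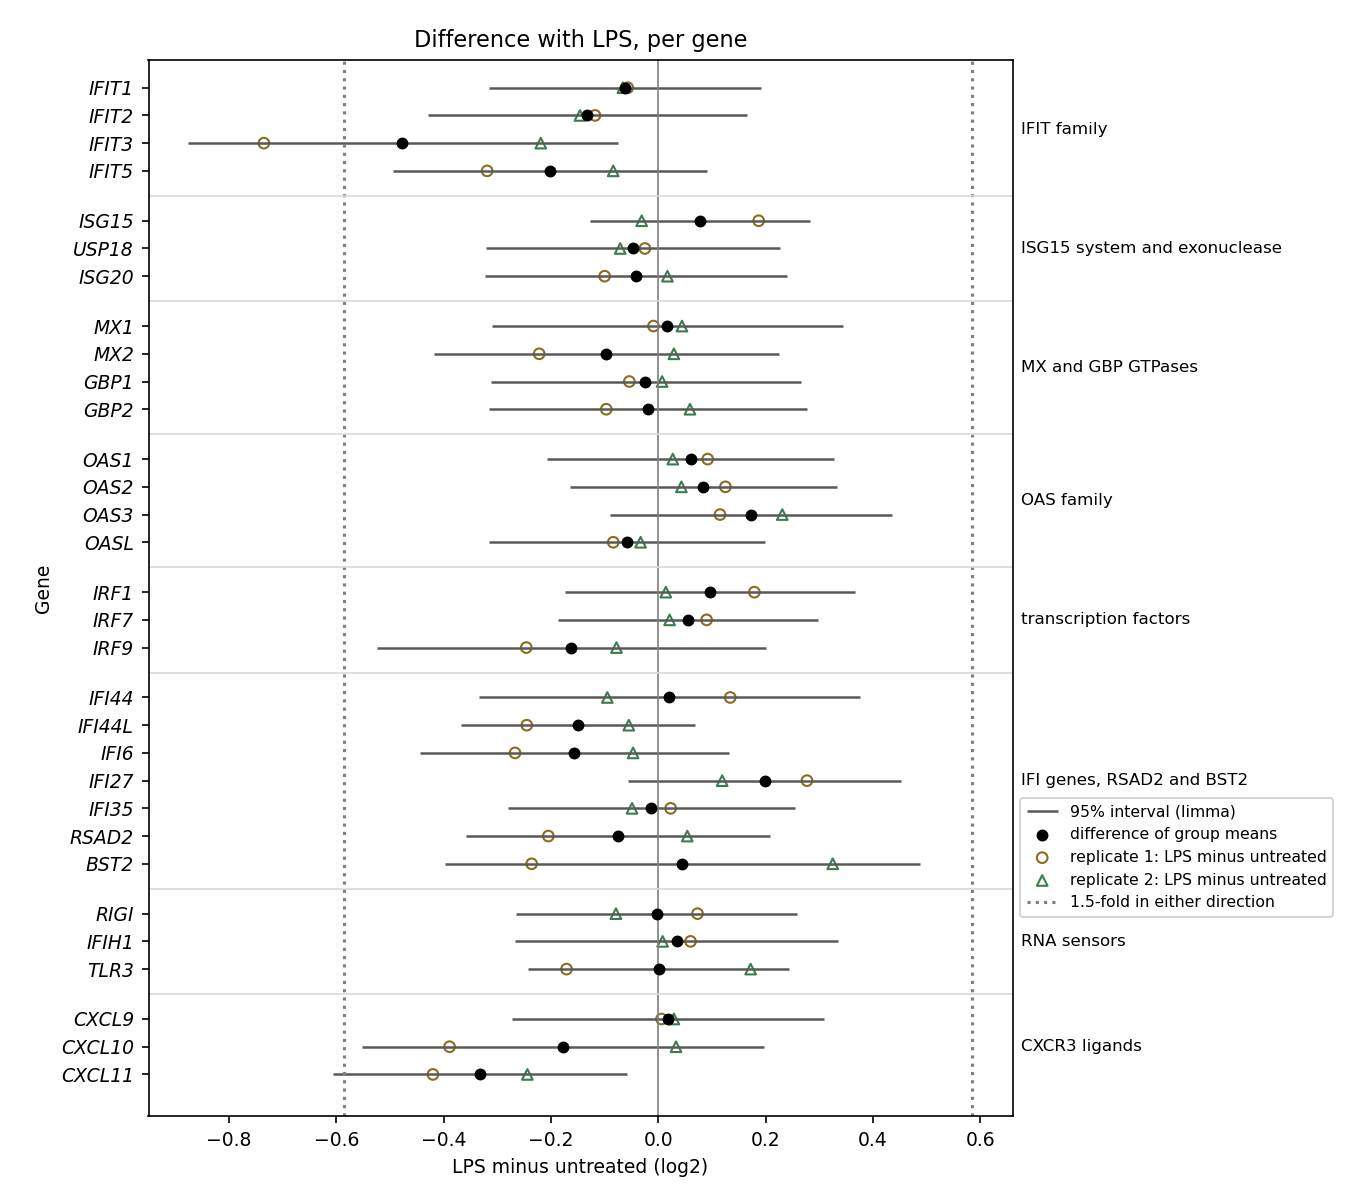
LPS minus untreated (x axis, log2) for each of the 31 genes (y axis, by role): black points are differences of group means with limma's 95% intervals, and open symbols the differences in replicate 1 (circles) and replicate 2 (triangles). All intervals end left of the right-hand 1.5-fold line, and the intervals of IFIT3 and CXCL11 lie below 0 before adjustment.

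The IFIT genes lie next to each other on chromosome 10 and encode a family of antiviral proteins, some of which bind foreign RNA and block its translation. On their brightest probe sets all 4 lay below 0 with LPS, with a median of -0.167. IFIT1 was at 9.62 and 9.51 in LPS cells, against 9.68 and 9.57 in untreated cells (arrays 1 and 2 in each group here and below). Its arrays overlapped, and the difference was -0.06 ± 0.11 (SE). IFIT2 was at 8.97 and 8.76 in LPS cells, against 9.08 and 8.90 in untreated cells, a difference of -0.13 ± 0.13. Its second probe set gave the same difference of -0.13, and the arrays overlapped.

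IFIT3, which binds and stabilises IFIT1, had the widest difference of the 31 genes. It was at 7.89 and 7.90 in LPS cells, against 8.63 and 8.12 in untreated cells. The groups did not overlap, untreated replicate 1 stood apart from the other 3 arrays, and the untreated arrays lay 0.51 apart. The difference was -0.48 ± 0.17 (SE; limma, unadjusted p = 0.0255, adjusted p = 1), which is a ratio of 0.72 (95% interval 0.54 to 0.95). It was -0.74 for replicate 1 of both groups and -0.22 for replicate 2. The second probe set of IFIT3 was at 7.95 and 7.78 in LPS cells, against 7.75 and 7.67 in untreated cells, a difference of 0.15 in the opposite direction. The probe sets of this gene disagree, so no direction was drawn for it.

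IFIT5 was at 8.10 on both LPS arrays, against 8.42 and 8.19 in untreated cells. The groups did not overlap, and the difference was -0.20 ± 0.12 (SE; limma, adjusted p = 1), with -0.17 on its second probe set. On the brightest probe sets all 4 IFIT genes were highest on untreated replicate 1, as were 3858 of the 19775 genes. The second probe set of IFIT2 was also highest on untreated replicate 1, while those of IFIT3 and IFIT5 were highest on LPS replicate 1 and on untreated replicate 2. Of the 31 genes, 6 had LPS arrays that both lay below both untreated arrays (11.7% of all genes) and 6 had them both above (17.9% of all genes), 12 of 31 in either direction (29.6% of all genes).

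ISG15, a ubiquitin-like protein that is attached to other proteins during the interferon response, was far above the olfactory percentile. It was at 12.09 and 12.00 in LPS cells, against 11.90 and 12.03 in untreated cells. The arrays overlapped, and the difference was 0.08 ± 0.09 (SE), or a ratio of 1.06 (95% interval 0.92 to 1.22). USP18, the protease that removes ISG15 and brakes the type I interferon receptor, was at 7.65 and 7.54 in LPS cells, against 7.68 and 7.61 in untreated cells. The exonuclease gene ISG20 was at 7.87 and 8.04 in LPS cells, against 7.97 and 8.03 in untreated cells, with differences of -0.04 and -0.03 on its probe sets. Neither gene separated the groups.

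The OAS enzymes sense double-stranded RNA and make 2′-5′ oligoadenylates, and OASL is a family member without that activity. OAS3 was at 9.34 and 9.51 in LPS cells, against 9.23 and 9.28 in untreated cells. Both LPS arrays lay above both untreated arrays, by a mean of 0.17 ± 0.11 (SE; limma, adjusted p = 1), and its dimmer probe set differed by 0.07. OAS1 was at 7.73 and 7.75 in LPS cells, against 7.64 and 7.73 in untreated cells. OAS2 was at 5.83 and 5.73 in LPS cells, against 5.70 and 5.69 in untreated cells. OAS1 and OAS2 differed by 0.06 and 0.08, each less than the larger of its gaps between same-group arrays. The 7 probe sets of OAS1, OAS2 and OAS3 differed by 0.04 to 0.17, all above 0. OASL was at 8.56 and 8.63 in LPS cells, against 8.64 and 8.67 in untreated cells, a difference of -0.06 ± 0.11.

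MX1 and MX2 encode dynamin-like GTPases that trap viral particles, and the guanylate-binding proteins GBP1 and GBP2 are GTPases induced by interferon gamma. MX1 was at 5.61 and 5.89 in LPS cells, against 5.62 and 5.85 in untreated cells, a difference of 0.02 ± 0.14 (SE). Its arrays sorted by replicate number and not by group. MX2 was at 6.54 and 6.85 in LPS cells, against 6.76 and 6.82 in untreated cells, a difference of -0.10 ± 0.14. GBP1 was at 4.89 and 5.14 in LPS cells, against 4.95 and 5.13 in untreated cells, and GBP2 at 6.10 and 6.34, against 6.20 and 6.29. On the brightest probe sets all 4 genes were highest on LPS replicate 2 and lowest on LPS replicate 1. Of the 82 olfactory receptor genes, 43 were highest on LPS replicate 2 and 31 lowest on LPS replicate 1. The 4 probe sets of GBP1 ran from -0.12 to 0.10, and its brightest ends in _x_at, a class that can share signal with related genes.

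Of the factors that carry or extend the signal, IRF9, the DNA-binding part of the ISRE complex, was at 9.51 and 9.91 in LPS cells, against 9.76 and 9.99 in untreated cells. Its arrays overlapped, and the difference was -0.16 ± 0.16 (SE). IRF7, which amplifies interferon production, was at 9.38 and 9.37 in LPS cells, against 9.29 and 9.35 in untreated cells. IRF1, a factor induced by interferon gamma and by NF-kB, was at 8.50 and 8.48 in LPS cells, against 8.32 and 8.46 in untreated cells. For IRF7 and IRF1 the groups did not overlap, with differences of 0.06 ± 0.10 and 0.10 ± 0.12, and the second probe set of IRF1 differed by -0.09.

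IFI27, a small mitochondrial protein, had the highest positive difference of the 31 genes. It was at 9.74 on both arrays of LPS cells, against 9.46 and 9.62 in untreated cells. The groups did not overlap, and the difference was 0.20 ± 0.11 (SE; limma, unadjusted p = 0.109, adjusted p = 1), or 0.28 and 0.12 within the arrays numbered 1 and 2. IFI6, a mitochondrial and endoplasmic reticulum protein that opposes cell death, went the other way, at 8.24 on both LPS arrays, against 8.50 and 8.29 in untreated cells. Its difference was -0.16 ± 0.12.

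BST2, or tetherin, holds budding virus at the cell surface. It was at 5.10 and 5.72 in LPS cells, against 5.33 and 5.40 in untreated cells, so that its LPS arrays lay on either side of the untreated ones. RSAD2, or viperin, makes a chain-terminating nucleotide. It was at 6.70 and 6.83 in LPS cells, against 6.91 and 6.78 in untreated cells, with differences of -0.08 and -0.37 on its probe sets. The second probe set was dim, at 6.12 and 5.91 in LPS cells, against 6.31 and 6.45 in untreated cells. Its groups did not overlap (limma over probe sets, unadjusted p = 0.0291). IFI44, a cytosolic interferon-induced protein, was at 6.20 and 5.81 in LPS cells, against 6.07 and 5.91 in untreated cells, and its probe sets differed by 0.02 and -0.26. The related IFI44L was at 4.36 and 4.45 in LPS cells, against 4.60 and 4.51 in untreated cells, and IFI35 at 6.56 and 6.59, against 6.53 and 6.64. IFI44L separated the groups by -0.15 ± 0.09 and IFI35 did not separate them.

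The RNA sensors are given first on their brightest probe sets. RIGI, which detects RNA with a 5′ triphosphate, was at 8.54 and 8.46 in LPS cells, against 8.46 and 8.54 in untreated cells. IFIH1 (MDA5), which detects long double-stranded RNA, was at 7.67 and 7.47 in LPS cells, against 7.61 and 7.46 in untreated cells. TLR3, the endosomal receptor of double-stranded RNA, was at 4.17 and 4.32 in LPS cells, against 4.34 and 4.15 in untreated cells. On these probe sets none of the 3 genes separated the groups, and the differences were -0.003 for RIGI, 0.03 for IFIH1 and 0.001 for TLR3. The brightest probe set of RIGI is of the _x_at class, and its others differed by -0.07 and -0.15, the last without overlap between the groups. The other probe sets of TLR3 differed by 0.14 and 0.07. The 3 probe sets of TLR3 all lay near the bottom of the scale, with untreated means of 4.02 to 4.25.

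The chemokine genes CXCL9, CXCL10 and CXCL11 lie next to each other on chromosome 4, and all 3 were dim. CXCL10 was at 6.15 and 6.60 in LPS cells, against 6.54 and 6.57 in untreated cells. LPS replicate 1 lay below the other 3 arrays, which agreed closely, and the difference was -0.18 ± 0.16 (SE), or a ratio of 0.88 (95% interval 0.68 to 1.15). CXCL9 was at 5.68 and 5.87 in LPS cells, against 5.67 and 5.85 in untreated cells, a difference of 0.02 ± 0.12. Its arrays sorted by replicate number.

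CXCL11 was at 5.67 and 5.87 in LPS cells, against 6.09 and 6.11 in untreated cells. The groups did not overlap, and the difference was -0.33 ± 0.12 (SE; limma, unadjusted p = 0.0238, adjusted p = 1), or a ratio of 0.79 (95% interval 0.66 to 0.96). The second probe set was at 5.59 and 5.28 in LPS cells, against 6.11 and 5.83 in untreated cells, a difference of -0.53. Both probe sets of CXCL11 thus lay lower in LPS cells without overlap, at signals within the range of olfactory receptor genes. Within the arrays numbered 1 and 2 the brighter probe set differed by -0.42 and -0.24.

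**Figure D4:**
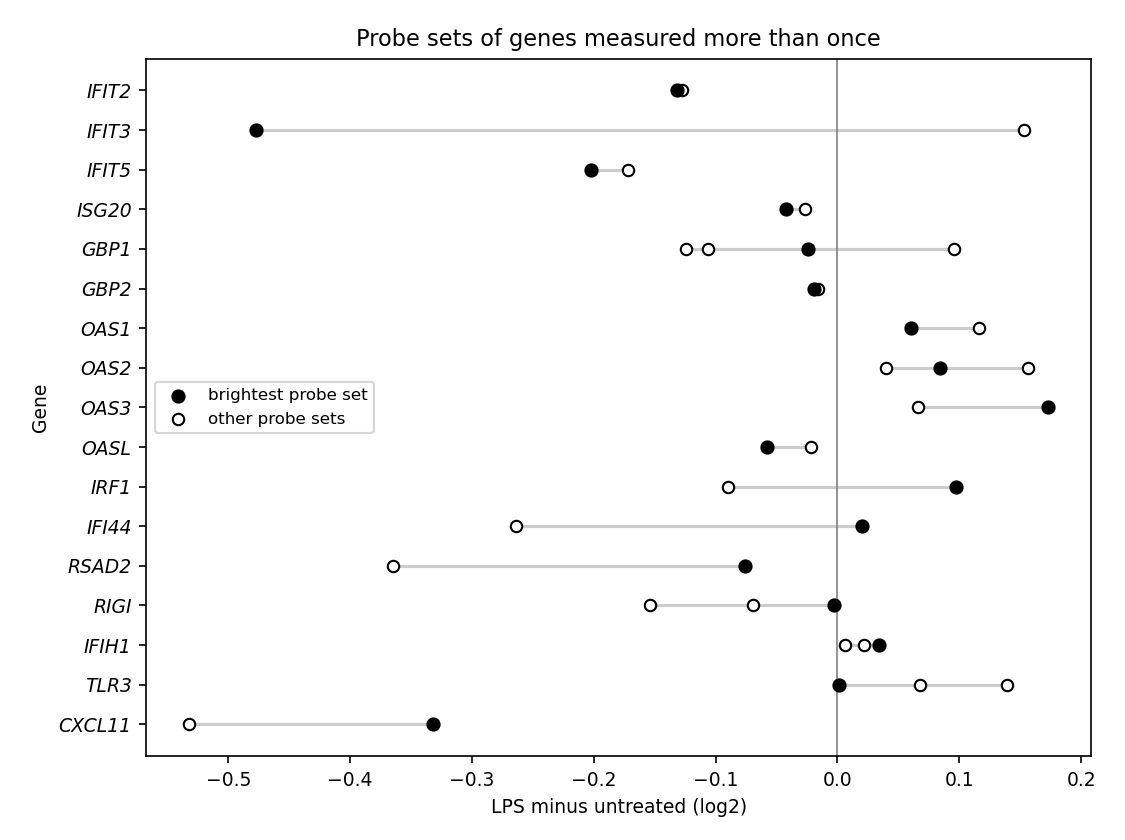
LPS minus untreated (x axis, log2) on every probe set of the 17 genes measured by more than 1; filled points are the brightest probe set of a gene and open points the others. Probe sets differ in sign for 4 genes (IFIT3, GBP1, IRF1 and IFI44), and IFIT3 spans -0.48 to 0.15.

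LPS minus untreated had the same sign in both same-numbered pairs for 18 of the 31 genes (58.1%), 10 below and 8 above 0, beside 56.0% of all genes. The median over the 31 genes was -0.057 in replicate 1 and 0.008 in replicate 2. Replicate 2 was higher than replicate 1 in both groups for 8 of the 12 genes below the olfactory percentile, beside 41.7% of all genes and 43.9% of the olfactory receptor genes. In LPS cells, replicate 2 minus replicate 1 had a median of 0.199 over the 12 dim genes and 0.108 over the olfactory receptor genes. The part of this gap in the chemokine and GTPase values was not tested.

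**Figure D5:**
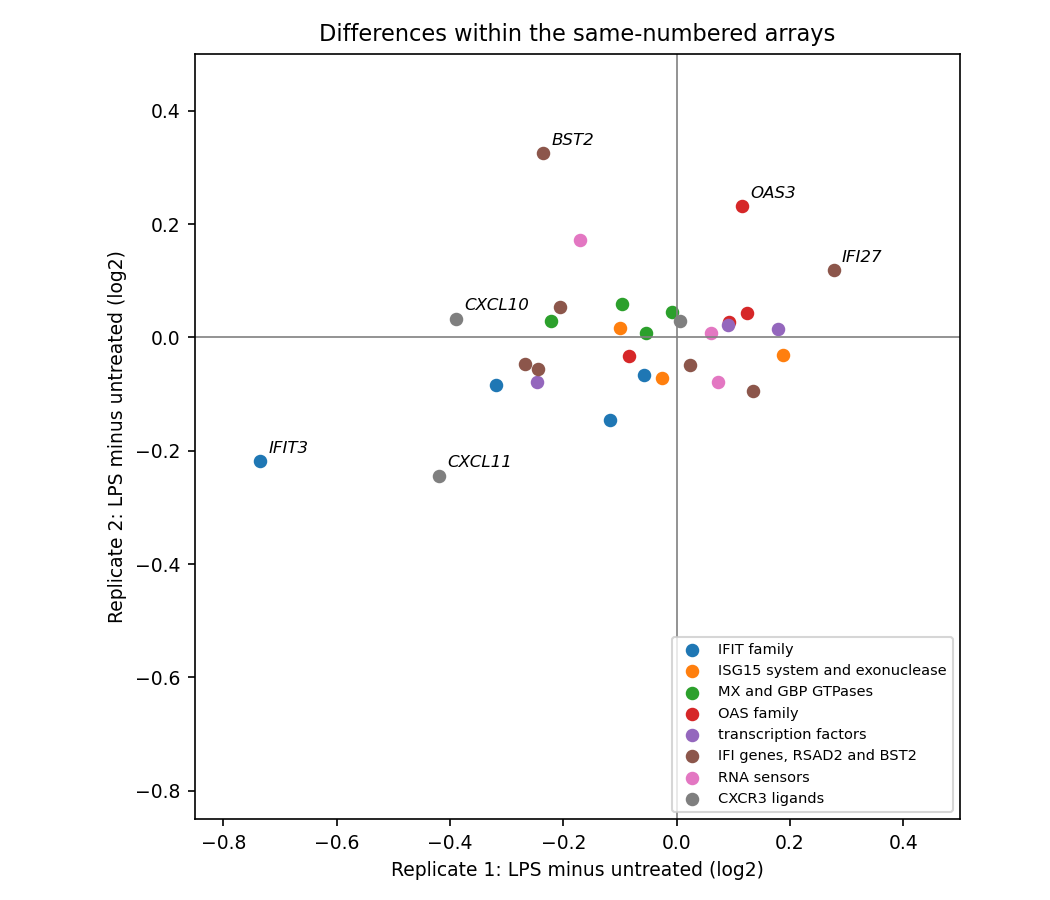
LPS minus untreated (log2) in replicate 1 (x axis) and in replicate 2 (y axis), 1 point per gene, coloured by role. IFIT3 (-0.74 and -0.22) and CXCL11 (-0.42 and -0.24) lie lowest to the left, while BST2 and CXCL10 have opposite signs in the pairs.

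Upstream of these genes, the interferon ligand genes were mostly dim. Of 9 measured ligand genes, 1 lay above the olfactory percentile, IFNL1 (a type III interferon), at 6.76 and 6.87 in LPS cells, against 6.65 and 7.01 in untreated cells. IFNB1, interferon beta, was at 5.58 and 5.55 in LPS cells, against 5.50 and 5.69 in untreated cells. None of the 9 passed the test, and their median difference was -0.023. At an unadjusted p under 0.05, 1 was lower (1.57% of all genes), IFNE (-0.26 ± 0.10, SE; limma, adjusted p = 1), named after its values were seen. The receptors stood out from the dim signal, since all 6 lay above the median over genes: IFNGR1 and IFNGR2 (the interferon gamma receptor), IFNAR1 and IFNAR2 (type I), and IFNLR1 and IL10RB (type III). Their differences ran from -0.11 for IFNAR1 to 0.17 for IFNLR1, and none passed. On the mean of its probe sets IFNLR1 differed by 0.02.

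The kinase gene JAK1 was at 11.07 and 11.01 in LPS cells, against 10.91 and 10.90 in untreated cells, a difference of 0.14 ± 0.09 (SE; 0.08 on the mean of its probe sets), and TYK2 differed by 0.06 ± 0.12. The adaptor genes TICAM1 and MAVS differed by 0.01 and -0.03, and IRF3 by 0.04. On the mean of its probe sets MAVS had the opposite sign, at 0.08. STING1, the adaptor of the DNA sensor CGAS, was dim, at 5.86 and 6.08 in LPS cells, against 6.15 and 6.37 in untreated cells, without overlap. Its difference was -0.29 ± 0.13 (limma, unadjusted p = 0.0647, adjusted p = 1) on the brighter probe set and -0.06 on the mean of its probe sets, so no direction was drawn for it. The feedback genes SOCS1 and SOCS3 differed by 0.03 and 0.18 (SOCS3 by 0.09 on the mean of its probe sets), and CXCR3, the receptor of the 3 chemokines, by 0.06 at a dim signal.

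A wider list of 54 other interferon-stimulated genes was read in the same fit. None passed in either direction, and the median was 0.03, beside 0.017 over all genes. At an unadjusted p under 0.05 (limma) there were 0 higher (1.26% of all genes) and 1 lower (1.57% of all genes). Of these 54 genes 38 lay above 0 and 16 below (29.6% below, beside 43.5% of all genes). The members with the largest statistics were SAMD9 (-0.28 ± 0.11, SE), the ubiquitin ligase gene TRIM25 (0.19 ± 0.10) and the nucleic acid sensor ZBP1 (0.24 ± 0.12), each with an adjusted p of 1 (limma). SAMD9 was at 6.28 and 6.36 in LPS cells, against 6.60 and 6.61 in untreated cells, and the signals of SAMD9 and ZBP1 were dim. On the mean of the probe sets SAMD9 differed by -0.17 and ZBP1 by 0.12.

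The label of the cells was read against marker genes. All 7 epithelial markers lay above the olfactory percentile, with EPCAM at 13.49 in LPS cells and 13.56 in untreated cells and KRT18 at 14.43 in LPS cells and 14.38 in untreated cells. Of 8 gastric markers 4 lay above it (TFF1, MUC5AC, CLDN18 and PGC), and TFF2, MUC6, GKN1 and GKN2 lay below. Among 13 measured leukocyte markers 3 lay above it. These were LYZ, bright at 9.82 in LPS cells and 9.97 in untreated cells, CD3E (7.11 and 7.13) and AIF1 (7.09 and 7.05). The pan-leukocyte gene PTPRC lay below, at 4.93 in LPS cells and 5.12 in untreated cells. Of 10 fibroblast and endothelial markers 3 lay above the percentile: COL1A1 (8.67 in LPS cells and 8.59 in untreated cells), COL1A2 (6.96 and 6.81) and PECAM1 (7.06 and 7.20). None of the markers passed the test. Array medians were 6.32 and 6.36 in LPS cells, against 6.31 and 6.33 in untreated cells, over 54675 probe sets.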

How the data were processed

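The authors deposited log2 expression values for 54675 probe sets on 4 arrays. MAS5 and RMA are named, without role or version, per the submitters' processing notes. Which of them made the values, and with what settings, is not given in the sources used here. Background handling in either can shrink or widen differences between dim signals. Probe sets were named through the platform annotation: 41091 had 1 gene symbol outside the control probe sets and were used, 1801 had several and 11777 had none. Symbols were checked by gene number against RefSeq, and 0 needed updating. Each of 19775 genes was represented by its brightest probe set (mean over 4 arrays).

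The group difference was fitted in R 4.3.3 by limma 3.58.1, two-sided and with eBayes using an intensity trend, with p-values adjusted by Benjamini-Hochberg over all genes, and the code was tested on simulated data. Values are per array, and intervals are 95% intervals of that fit. Precision is limited by having 4 arrays. The members and lists were chosen with earlier results of these data known. All 32 members were to be named whatever their values, with the other probe sets of a member where they differ in sign or by over 0.3, plus the receptors and selected signalling genes, and the 3 other interferon-stimulated genes with the largest statistic. Further probe sets given above were chosen after their values were seen. Alternatives covered normalization, centring, probe set choice, filters, the trend, a replicate block and each array left out. Figures were drawn with matplotlib 3.10.9.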

Additional observations from a re-analysis of the deposited data

How the results depend on the processing

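The count of the 31 genes past the adjusted threshold was 0 in either direction under the main setting and all 12 alternatives. Over all genes the count was 0 higher and 0 lower except without LPS replicate 2, where 2 genes were higher and 14 lower, none of them among the 31. With 1 array left out, the median difference over the 31 genes ran from -0.082 (without LPS replicate 2) to 0.036 (without LPS replicate 1). It was -0.019 with all arrays, and its sign turned only without LPS replicate 1. The median over all genes moved in the same directions, to -0.012 without LPS replicate 2 and 0.046 without LPS replicate 1, against 0.017 with all arrays. The shift of the 31 genes was therefore not read as particular to them. Without LPS replicate 1, 9 of the 31 genes turned sign, without LPS replicate 2, 6 did, without untreated replicate 1, 2 did, and without untreated replicate 2, 7 did. CXCL11 stayed below 0 over 10 alternatives (-0.53 to -0.23) and IFIT3 over 11 (-0.73 to -0.16). The IFIT3 values rest on its brightest probe set, alone or averaged with the second. Read as its own test, the second probe set differed by 0.15, so the stable sign gives IFIT3 no direction. CXCL10 ran from -0.40 to 0.05 and BST2 from -0.27 to 0.36. IFI27 (0.12 to 0.28) and OAS3 (0.09 to 0.26) stayed above 0. On the mean of probe sets, the members lower at an unadjusted p under 0.05 (limma) were CXCL11 and RSAD2, without IFIT3. In that setting 466 of 19775 genes reached that level in either direction. Without probe sets ending in _x_at or _s_at, the members were CXCL11, IFI44 and IFIT3, beside 533 of 17098 genes. Which members reach that level thus depends on the choice of probe set. The sizes depend on the arrays as well. With 1 array left out, CXCL11 ran from -0.43 to -0.23 and IFIT3 from -0.73 to -0.22. With the replicate number as a block, 0 of the 31 genes passed, the median stayed at -0.019, and at an unadjusted p under 0.05 IFI27 was higher and CXCL11 and IFIT3 lower; genes past that level numbered 1487 over all genes, against 559 without the block. The labels link same-numbered arrays by a number alone, but their values share more. Deviations of same-numbered arrays correlated at 0.44 across genes, which are not independent replicates. The first principal component, the main axis of variation between arrays, held 55% of the variance. On it replicate 1 lay at -12.6 (LPS) and -10.7 (untreated), and replicate 2 at 16.7 (LPS) and 6.6 (untreated). The main fit has no term for this, and its source was not tested. Dim signal limits what can be said of MX1, the GBP genes, TLR3 and the CXCR3 ligands.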
